A study of Mus musculus with 8 samples.

Results

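The 9 genes described here encode transcription factors that meet at activator protein 1 (AP-1) sites: the BATF proteins *Batf* and *Batf3*, the FOS proteins *Fos* and *Fosl2*, the JUN proteins *Jun*, *Junb* and *Jund*, and the interferon regulatory factors *Irf4* and *Irf8*. They were chosen by name from these families, with earlier results of these data known. All 9 were found among the 11911 genes of the count table, and all 9 passed the filter on low counts, which kept 11317 genes. RNA-seq was performed on total RNA depleted of ribosomal RNA from 8 cultures of induced regulatory T cells (iTregs), 4 from Foxp3YFP-Cre control mice, which the labels call WT, and 4 from Tdrd3fl/fl/Foxp3YFP-Cre mice, which the labels call knockout. Naïve CD4+ T cells from spleen had been cultured for 36 hours with TGF-β, antibodies to CD3 and CD28, and antibodies that block IFN-γ and IL-4. Both genotypes carry Cre expressed from the *Foxp3* locus, so that the floxed *Tdrd3* gene is deleted only in cells that have begun to transcribe *Foxp3*, and the methods describe no sort for YFP before the RNA was taken. The age of the mice in this experiment was not given in the sources used here. The comparison asks how the RNA of these factors differs in iTreg cultures when *Tdrd3*, which encodes a Tudor domain coregulator of transcription, is targeted.

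AP-1 is a dimer of basic leucine zipper (bZIP) proteins, usually a JUN protein bound to a FOS or BATF partner. T cell receptor and CD28 signals raise FOS and JUN activity through MAP kinase cascades. BATF and BATF3 carry the zipper but no transactivation domain, and their dimers with JUN proteins recruit IRF4 or IRF8 to composite AP-1 and IRF elements. In CD4+ T cells these complexes are known for their part in TH17 cells, in effector Tregs and in the response to repeated stimulation.

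The deposited estimated counts summed to between 13258239 and 16001676 per library. Values are given as normalized CPM, which scale each library's counts of tested genes to one total after TMM normalization, on which 3 counts correspond to 0.188 to 0.226 CPM. *Tdrd3* had a mean of 15.4 ± 3.95 CPM in controls and of 12.1 ± 1.43 in Tdrd3fl/fl/Foxp3YFP-Cre iTregs (SD, n = 4 each), with adjusted p = 0.496 in edgeR's quasi-likelihood test (p-values adjusted by the Benjamini-Hochberg method), and control replicate 3, at 9.95 CPM, lay below every knockout library. These counts are totals over the gene and do not separate its floxed part, so control and knockout name the libraries here by their labels only. For *Foxp3*, edgeR's test gave unadjusted P = 0.00212 and adjusted p = 0.152. The gene had 117, 122, 107 and 93.8 CPM in control replicates 1 to 4 and 77.2, 105, 93.2 and 78.1 in knockout replicates 1 to 4. Knockout replicates 1 and 4 therefore had the least *Foxp3* RNA, and the main differences below are also given without these libraries, a choice made after seeing the data. In bulk RNA, fewer cells of a type and less RNA per cell cannot be told apart.

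Between genotypes, *Batf3* and *Fosl2* had the largest differences of the 9 factors, both higher in Tdrd3fl/fl/Foxp3YFP-Cre iTregs, by 1.76-fold (95% confidence interval 1.35 to 2.30) and 1.46-fold (95% interval of the log2 fold change, 0.26 to 0.83). *Irf4* was slightly higher and *Jun* and *Jund* slightly lower, while *Batf*, *Fos*, *Junb* and *Irf8* did not pass an unadjusted P of 0.05. The largest differences thus fell on 1 BATF gene and 1 FOS gene of low level per kb of exon. *Fos*, the lowest per kb, had a log2 fold change of −0.03. The factors of higher level per kb were within 10% of the control mean. No factor passed an adjusted p of 0.05 in edgeR's test (0 of 9, against 0.265% of all tested genes), and 1 did with DESeq2 and 1 with voom, *Batf3* each time. Because the factors were chosen with earlier results of these data known, the shares that follow are descriptions and not a test of the family. At an unadjusted P of 0.05, 5 of 9 factors differed, against 9.3% of tested genes. Of these, 3 were higher, against 4.38% of tested genes, and 2 were lower, against 4.91%. At a fold change of at least 1.2 as well, 2 of 9 remained, against 3.47% of tested genes. In 0 of 9 did all 4 knockout libraries lie on one side of all 4 controls, against 4.89% of tested genes. The median log2 fold change was 0.08 over the 9 factors and 0.00132 over all tested genes. Without knockout replicates 1 and 4, 1 of the 9 factors differed at an unadjusted P of 0.05, namely *Batf3*, against 3.91% of tested genes.

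**Figure D1:**
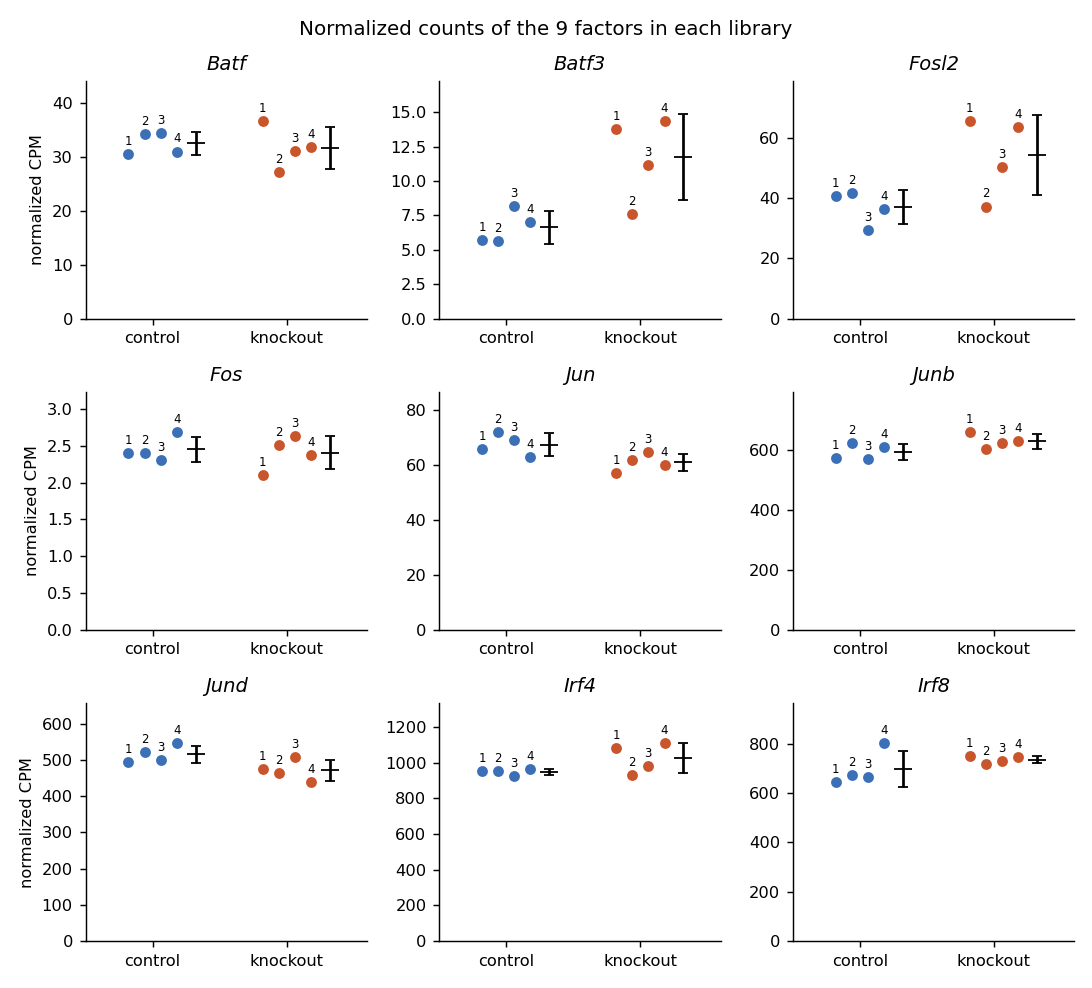
Normalized CPM (y axis, from 0) of each factor in the 4 control and the 4 knockout libraries, with points numbered by replicate and black bars for the mean and SD. In *Batf3* and *Fosl2*, knockout replicates 1, 3 and 4 lie above every control and replicate 2 lies among the controls.

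*Batf3* (ENSMUSG00000026630) spans 190830044 to 190841142 on the plus strand of chromosome 1 (GRCm39). The gene encodes a small BATF protein known for its need in cross-presenting dendritic cells. In control replicates 1 to 4 it had 5.68, 5.67, 8.20 and 7.01 normalized CPM, and in knockout replicates 1 to 4 it had 13.8, 7.58, 11.2 and 14.4. Knockout replicates 1, 3 and 4 were above every control, and knockout replicate 2 lay below control replicate 3, so the genotypes overlapped. The control mean was 6.64 ± 1.21 and the knockout mean 11.7 ± 3.10 (SD, n = 4 each), which gave a log2 fold change of 0.82 ± 0.182 (SE). The edgeR test gave unadjusted P = 2.57e-04 and adjusted p = 0.0676. The two-sided exact permutation test gave p = 0.0571, where the smallest p that 4 libraries against 4 allow is 0.0286. Over 15 alternatives the log2 fold change of *Batf3* was between 0.70 and 0.98, and the adjusted p was below 0.05 in 4, at 0.0103 with DESeq2, 0.0416 with voom and 0.0025 without knockout replicate 2 among them. The highest adjusted p was 0.322 in edgeR's test, without knockout replicate 4. Without control replicate 3, the control of lowest *Tdrd3* level, the log2 fold change was 0.93. Without knockout replicates 1 and 4, the log2 fold change was 0.49 with an unadjusted edgeR P of 0.0270. These values rest on 78.4 to 212 estimated counts per library, of which 7 of 8 were not whole, and 469 bases of *Batf3* exons overlap *Gm70128* on the opposite strand. The sources used here do not state whether counting used strand.

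The 250 bases before the RefSeq start are printed for the 3 factors that were higher in Tdrd3fl/fl/Foxp3YFP-Cre iTregs at an unadjusted P of 0.05, in GRCm38.p6 coordinates and on the strand of the gene. They are chr1:191098164-191098413 on the plus strand for *Batf3*, chr5:32136222-32136471 on the plus strand for *Fosl2* and chr13:30748983-30749232 on the plus strand for *Irf4*. Capitals mark the motifs searched.
Batf3: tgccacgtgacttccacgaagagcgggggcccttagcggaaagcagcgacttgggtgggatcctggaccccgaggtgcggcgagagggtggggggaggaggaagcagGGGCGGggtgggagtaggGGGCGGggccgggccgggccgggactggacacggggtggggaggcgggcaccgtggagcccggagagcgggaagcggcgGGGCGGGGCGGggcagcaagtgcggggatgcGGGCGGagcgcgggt
Fosl2: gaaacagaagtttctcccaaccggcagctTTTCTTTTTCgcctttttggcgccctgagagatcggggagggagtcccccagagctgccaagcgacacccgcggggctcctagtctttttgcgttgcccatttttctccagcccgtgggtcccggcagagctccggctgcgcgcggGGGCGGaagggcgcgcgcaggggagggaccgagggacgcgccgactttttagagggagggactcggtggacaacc
Irf4: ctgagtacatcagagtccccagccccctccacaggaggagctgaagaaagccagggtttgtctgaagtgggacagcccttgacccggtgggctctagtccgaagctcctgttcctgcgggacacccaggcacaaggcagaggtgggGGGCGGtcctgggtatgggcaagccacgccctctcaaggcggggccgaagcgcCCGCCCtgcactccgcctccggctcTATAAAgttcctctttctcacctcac
Searched on both strands were the AP-1 site TGANTCA, the CRE core TGACG, the GC box GGGCGG and the IRF element, GAAA and GAAA with NN between them, and the TATA box TATAAA was searched on the gene's strand. The *Batf3* window has 5 GC boxes, no TATA box and a GC content of 76%, higher than in 96.7% of the 32851 RefSeq promoters of the same length. The *Fosl2* window has 1 GC box and 1 match to the IRF element, which reads TTTCTTTTTC on this strand and starts 221 bases before the transcript. The *Irf4* window has 2 GC boxes and a TATA box that starts 26 bases before the transcript. A GC box was found in 32.7% of all such promoters, an IRF element in 2.98% and a TATA box in 7.59%. The AP-1 site TGANTCA, found in 6.75% of all promoters, was in none of the 10 windows of the 9 factors. Longer forms of the site were not searched, and the *Jun* window holds the letters TGACATCA. The *Fos* window held 2 CRE cores, found in 17.8% of all promoters, and a TATA box. These matches are descriptions of the letters in these windows.

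*Batf* (ENSMUSG00000034266), on chromosome 12 from 85733443 to 85755861 on the plus strand, encodes the family member that pairs with JUN proteins and IRF4 in TH17 cells. It had 30.4, 34.3, 34.4 and 30.9 normalized CPM in control replicates 1 to 4 and 36.7, 27.2, 31.0 and 31.8 in knockout replicates 1 to 4. The knockout libraries spread around the controls, with replicate 1 above and replicate 2 below all of them. The means were 32.5 ± 2.13 and 31.7 ± 3.89 (SD, n = 4 each), a log2 fold change of −0.04 with a 95% interval from −0.22 to 0.14 and an edgeR adjusted p of 0.937. In each library, *Batf3* was then set against the sum of *Batf* and *Batf3*, each as CPM per kb of exon, a measure chosen after the values were seen. *Batf3* made up 12.9% to 17.5% of this sum in controls and 19.9% to 28.8% in Tdrd3fl/fl/Foxp3YFP-Cre iTregs, with no overlap. How often such shares separate for other gene pairs was not counted, so the lack of overlap is a description only. The mean share was 15.4% ± 2.17 in controls and 24.6% ± 3.64 in knockouts (SD, n = 4 each), so *Batf* remained the larger part in every library.

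*Fosl2* (ENSMUSG00000029135), on chromosome 5 from 32293145 to 32315186 on the plus strand, encodes FRA2, a FOS protein of the TH17 and Treg transcription factor network. Its normalized CPM was 40.7, 41.7, 29.4 and 36.3 in control replicates 1 to 4 and 65.6, 37.2, 50.1 and 63.6 in knockout replicates 1 to 4. As for *Batf3*, knockout replicates 1, 3 and 4 were above every control and knockout replicate 2 lay inside their range. The control mean was 37.0 ± 5.58 and the knockout mean 54.1 ± 13.2 (SD, n = 4 each), which gave a log2 fold change of 0.54 ± 0.136 (SE). The edgeR test gave unadjusted P = 7.40e-04 and adjusted p = 0.0998, and the two-sided exact permutation test gave p = 0.0857. The log2 fold change lay between 0.44 and 0.69 over the 15 alternatives. The edgeR adjusted p was 0.00131 without knockout replicate 2 and 0.449 at its highest. With DESeq2, the unadjusted P of *Fosl2* was 0.0116 and its adjusted p 0.351. Without control replicate 3 the log2 fold change was 0.45. Without knockout replicates 1 and 4 it was 0.23, with an unadjusted P of 0.0855 in the same edgeR test. Each library had 420 to 936 counts of *Fosl2*, and 425 bases of its exons overlap *Gm72529* on the opposite strand.

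*Fos* (ENSMUSG00000021250), the founding FOS gene, which is induced within minutes of stimulation, was the least abundant of the 9 factors at 36 hours. It lies at 85520664 to 85524047 on the plus strand of chromosome 12. Its level was 2.40, 2.40, 2.31 and 2.69 normalized CPM in control replicates 1 to 4 and 2.11, 2.51, 2.63 and 2.38 in knockout replicates 1 to 4. All 8 values lay close together, and the log2 fold change was −0.03 with a 95% interval from −0.52 to 0.47. With 29 to 40 counts per library, these values do not tell a difference inside this interval from none. Of the other FOS genes, *Fosb* had 6 to 16 counts per library and *Fosl1* had at most 16.9, and neither passed the filter on low counts.

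The JUN genes encode the common partners of the FOS and BATF proteins. *Jund* (ENSMUSG00000071076), on chromosome 8 from 71151599 to 71153265 on the plus strand, had 495, 521, 500 and 547 normalized CPM in control replicates 1 to 4 and 476, 465, 508 and 438 in knockout replicates 1 to 4. Knockout replicates 1, 2 and 4 were below every control, and replicate 3 was among them. The log2 fold change was −0.13 ± 0.0458 (SE), with unadjusted P = 0.0106 and adjusted p = 0.319 in edgeR's test (two-sided exact permutation test, p = 0.0857). *Jun* (ENSMUSG00000052684), at 94937271 to 94940459 on the minus strand of chromosome 4, is the JUN gene best known as a target of JNK signalling. It had 65.5, 72.0, 69.1 and 62.7 normalized CPM in control replicates 1 to 4 and 57.1, 61.8, 64.7 and 59.8 in knockout replicates 1 to 4. Knockout replicates 1, 2 and 4 were below every control here too. Its log2 fold change was −0.15 ± 0.0597 (SE), with unadjusted P = 0.0248 and edgeR adjusted p = 0.446 (two-sided exact permutation test, p = 0.0571). Without knockout replicates 1 and 4, the log2 fold changes of *Jun* and *Jund* were both −0.09.

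*Junb* (ENSMUSG00000052837), at 85701113 to 85705347 on the minus strand of chromosome 8, encodes the JUN protein that pairs with BATF in TH17 cells. Its normalized CPM was 572, 623, 569 and 607 in control replicates 1 to 4 and 659, 602, 620 and 627 in knockout replicates 1 to 4. Only knockout replicates 1 and 4 were above every control, and the log2 fold change was 0.08 with a 95% interval from −0.00 to 0.17 and an edgeR adjusted p of 0.572. Within the JUN genes, as CPM per kb of exon, *Junb* made up 43.0% ± 0.662 of the sum in controls and 46.6% ± 1.74 (SD, n = 4 each) in Tdrd3fl/fl/Foxp3YFP-Cre iTregs. *Jund* made up 53.4% ± 0.846 in controls and 50.0% ± 1.66 in knockouts (SD, n = 4 each), and *Jun* 3.65% and 3.38%. The shares of *Junb* and of *Jund* did not overlap between genotypes, a measure also chosen after the values were seen. As *Jun* made up little of the sum, the shares of *Junb* and *Jund* mirror each other and are not separate results. How often such shares separate for other genes was not counted. Exons of these genes overlap others on the opposite strand, *Junb* with *Prdx2* over 173 bases and *Gm65321* over 145, *Jund* with *Gm11175* over 877 and *Jun* with *Junos* over 528, so counting without strand could share reads with them.

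*Irf4* (ENSMUSG00000021356), on chromosome 13 from 30933209 to 30950959 on the plus strand, encodes a factor that rises with T cell receptor signal strength and binds with BATF. It had 953, 951, 926 and 961 normalized CPM in control replicates 1 to 4 and 1081, 932, 979 and 1110 in knockout replicates 1 to 4. The controls were tightly grouped, knockout replicates 1, 3 and 4 lay above them, and knockout replicate 2 lay among them. The means were 948 ± 15.2 and 1026 ± 83.9 (SD, n = 4 each), a log2 fold change of 0.11 ± 0.0467 (SE), with unadjusted P = 0.0249 and edgeR adjusted p = 0.446. The two-sided exact permutation test gave p = 0.171. Without knockout replicates 1 and 4 the log2 fold change of *Irf4* was 0.01. *Irf8* (ENSMUSG00000041515), on chromosome 8 from 121463097 to 121483433 on the plus strand, encodes the relative of IRF4 that is best known in myeloid and B cells. Its normalized CPM was 644, 673, 664 and 803 in control replicates 1 to 4 and 747, 718, 729 and 745 in knockout replicates 1 to 4. Control replicate 4 was the highest of the 8 libraries and the other 3 controls were the lowest. The log2 fold change was 0.08, with a 95% interval from −0.03 to 0.19 and an edgeR adjusted p of 0.741. Without control replicate 4 the log2 fold change was 0.15, with unadjusted P = 4.89e-04 and adjusted p = 0.0535 in edgeR's test. With voom the unadjusted P of *Irf8* was 0.0289. These were the only 2 of 15 alternatives in which its unadjusted P was under 0.05.

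**Figure D2:**
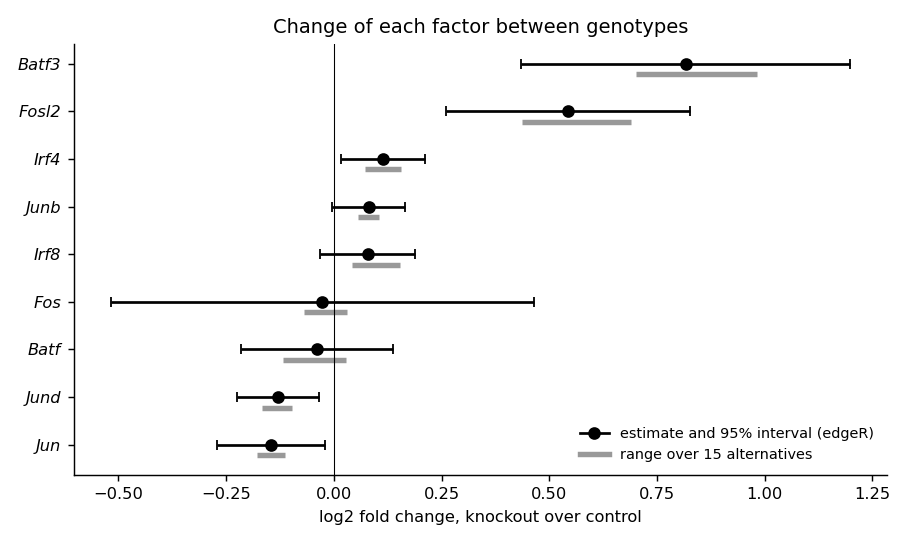
Log2 fold change of each factor, knockout over control (x axis), with its 95% confidence interval from edgeR's test (black) and the range of the estimate over 15 alternatives (grey). The intervals of *Batf3*, *Fosl2* and *Irf4* lie above 0, those of *Jun* and *Jund* lie below 0, and the other 4 include 0.

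To compare levels between genes, CPM was divided by the exon length of each gene in GENCODE. This length is the union of all annotated exons, 10397 bases for *Fosl2* and 1426 for *Batf*, and the order of the genes depends on it. In CPM alone, *Fosl2* had a higher control mean than *Batf*, at 37.0 against 32.5. In controls, *Jund* had 310 ± 14.2 CPM per kb, *Junb* 249 ± 11.1 and *Irf4* 193 ± 3.11 (SD, n = 4 each). These values placed *Jund* above 99.5% of tested genes. *Irf8* followed with 71.6 ± 7.41 CPM per kb, above 96.6% of tested genes. *Batf* had 22.8 ± 1.49 CPM per kb and *Jun* 21.1 ± 1.27 (SD, n = 4 each), with overlapping control libraries. *Batf3* had 4.16 ± 0.760 CPM per kb and *Fosl2* 3.56 ± 0.537 (SD, n = 4 each), again with overlapping control libraries, and *Fos* was lowest at 1.04 ± 0.0702. The factors with the largest differences between genotypes were thus among those of low level per kb, *Batf3* above 40.9% and *Fosl2* above 37.0% of tested genes. In Tdrd3fl/fl/Foxp3YFP-Cre iTregs *Batf3* reached 7.35 ± 1.94 CPM per kb and *Fosl2* 5.21 ± 1.27 (SD, n = 4 each), still below the level of *Batf* in every library. In these libraries *Jund*, at 283, and *Junb*, at 263 CPM per kb, overlapped.

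**Figure D3:**
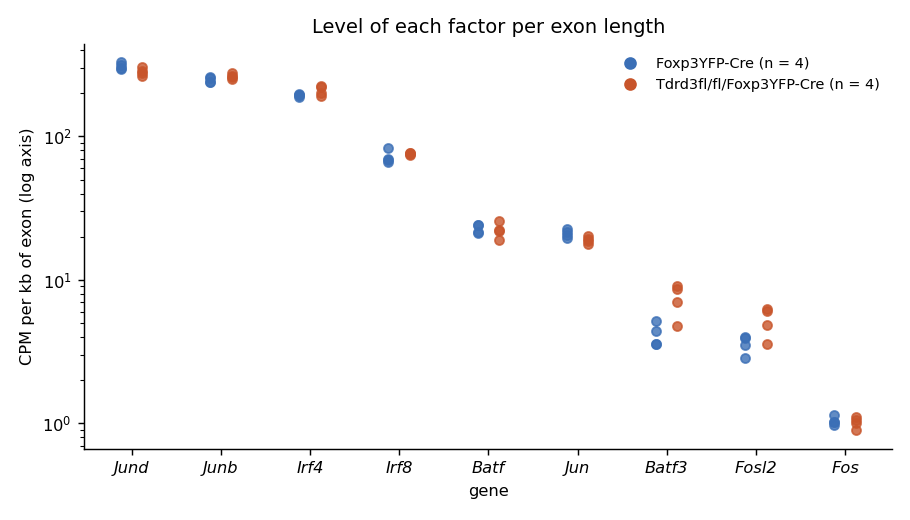
CPM per kb of exon (y axis, log scale) of the 9 factors in the control and the knockout libraries, 1 point per library, ordered by the control mean. The factors run from *Jund* at 310 to *Fos* at 1.04 CPM per kb in controls, and *Batf3* and *Fosl2* are the factors whose points separate most between genotypes.

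The factors did not vary alike over the knockout libraries. *Fosl2*, *Batf*, *Junb* and *Irf8* had the same order from high to low, namely knockout replicates 1, 4, 3 and 2. *Batf3* and *Irf4* had the order 4, 1, 3 and 2, with replicate 2 lowest in each of these 6 genes. *Jun* and *Fos* had the order 3, 2, 4 and 1, and *Jund* the order 3, 1, 2 and 4. *Foxp3* had the order 2, 3, 4 and 1, so the libraries with the least *Foxp3* RNA, replicates 1 and 4, had the most *Batf3*, *Fosl2* and *Irf4* RNA. *Tdrd3* had the order 1, 3, 4 and 2 in the knockouts, at 13.7, 12.9, 11.1 and 10.7 CPM. Knockout replicate 2, with the least *Tdrd3* RNA of the knockouts, thus also had the least *Batf3*, *Fosl2* and *Irf4* RNA among them. Among the controls, replicate 4 had the least *Foxp3* RNA, its *Batf3* and *Fosl2* values lay inside the range of the other controls, and its *Irf4* and *Maf* values were the highest of the controls. The part of *Foxp3* or *Tdrd3* level in the differences was not tested. By the root mean square difference of mean-centred log2 CPM over the 8 libraries, *D630045J12Rik*, at 0.191, and *Nebl*, at 0.217, were among the 3 genes most like *Batf3* of the 8777 compared, where *Batf3* itself varied by 0.493 around its mean. The genes most like *Fosl2* were *Adarb1* at 0.0597, *Atxn1* at 0.105 and *Stoml1* at 0.149, against a spread of 0.376 for *Fosl2*. Those most like *Irf4* were *Il21r*, *Sesn3* and *Zfta*, at 0.0310 to 0.0320, those most like *Jun* included *Atp2a3* at 0.0358 and *Gramd4* at 0.0419, and those most like *Jund* were *Hdac5*, *Dhcr7* and *Nipal3*, at 0.0375 to 0.0382. These likenesses are descriptions over 8 libraries, which share their normalization and the contrast between genotypes.

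**Figure D4:**
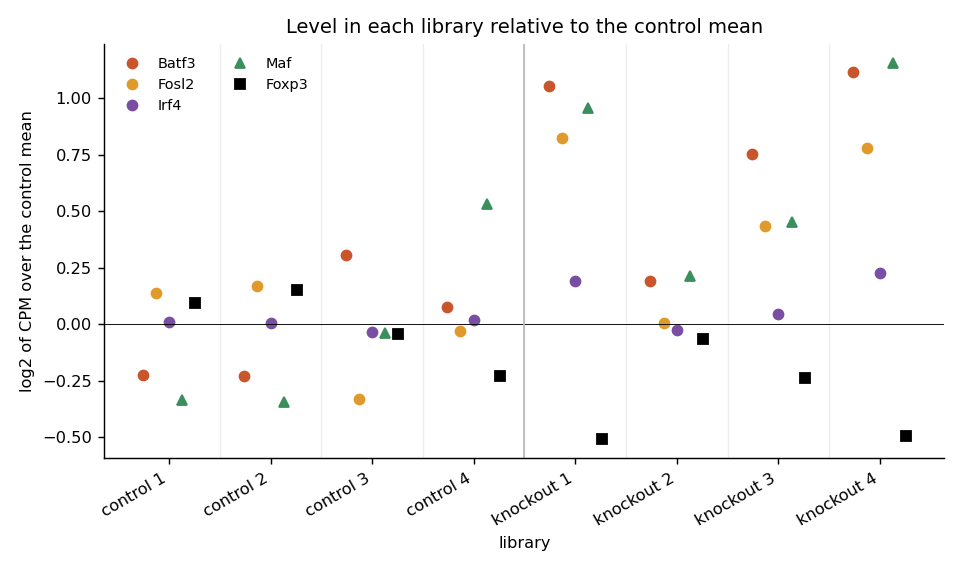
Log2 of normalized CPM over the control mean (y axis) in each of the 8 libraries for *Batf3*, *Fosl2* and *Irf4* (circles), the bZIP factor *Maf* (triangles) and *Foxp3* (squares). In knockout replicates 1 and 4 the first 4 genes lie highest and *Foxp3* lowest, and in knockout replicate 2 *Batf3*, *Fosl2* and *Irf4* lie within the range of the controls.

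Of 14 other bZIP factors tested, out of 18 in the list, 3 were higher in Tdrd3fl/fl/Foxp3YFP-Cre iTregs and 0 were lower at an unadjusted P of 0.05, with a median log2 fold change of 0.06. Over all tested genes, 4.38% were higher and 4.91% were lower at this threshold, the shares to set beside this list and those below. *Maf*, a bZIP factor of TH17 cells and of IL-10 production, had 11.6, 11.6, 14.3 and 21.2 normalized CPM in control replicates 1 to 4 and 28.5, 17.0, 20.1 and 32.7 in knockout replicates 1 to 4. Knockout replicates 1 and 4 were above every control, and replicates 2 and 3 lay below control replicate 4. Its log2 fold change was 0.74 with an edgeR adjusted p of 0.109, and without knockout replicates 1 and 4 it was 0.33 with an unadjusted edgeR P of 0.0963. *Atf3*, which is induced by stress and dimerizes with JUN proteins, had 8.64 CPM in controls and 12.4 in knockouts, and *Nfil3*, a bZIP repressor, 21.9 and 26.0. Their log2 fold changes were 0.52 and 0.24, with edgeR adjusted p-values of 0.205 and 0.283. The abundant *Bach2*, which competes with AP-1 at its sites, and *Creb1* had log2 fold changes of 0.07 and −0.01.

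Of 10 other genes named for IRFs, 0 were higher and 2 were lower at an unadjusted P of 0.05, with a median log2 fold change of −0.01. The list includes *Irf2bp1*, *Irf2bp2* and *Irf2bpl*, which are named for binding IRF2 and are not IRF genes. *Irf7*, an interferon-induced factor, had 2.61 normalized CPM in controls and 1.49 in knockouts, with every knockout library below every control, a log2 fold change of −0.80 and an edgeR adjusted p of 0.288. *Irf2bp2*, a corepressor that binds IRF2, had 310 and 278 CPM, a log2 fold change of −0.15 and an edgeR adjusted p of 0.343. The abundant *Irf2bpl* had a log2 fold change of −0.01.

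Upstream, 23 genes of the MAP kinase input to AP-1 were tested, of which 1 was higher and 0 were lower at an unadjusted P of 0.05, with a median log2 fold change of 0.00. The gene was *Mapk8*, which encodes JNK1, a kinase of JUN. It had 41.5 normalized CPM in controls and 47.6 in knockouts, with every knockout library above every control, a log2 fold change of 0.20 and an edgeR adjusted p of 0.222. The abundant *Map3k7*, which encodes the kinase TAK1, had a log2 fold change of 0.03. Of 12 MAP kinase inhibitors tested, out of 14, only *Spred2*, an inhibitor of RAS and RAF signalling, differed at an unadjusted P of 0.05, with 67.4 and 62.1 CPM, a log2 fold change of −0.12 and an edgeR adjusted p of 0.506. The phosphatase genes *Dusp4* and *Dusp5* had log2 fold changes of 0.02 and −0.02.

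Downstream, 9 of 16 listed targets of BATF and IRF4 were tested, of which 2 were higher and 0 were lower at an unadjusted P of 0.05, with a median log2 fold change of −0.06. *Lag3*, an inhibitory receptor, had 25.7 ± 1.36 CPM in controls and 33.4 ± 3.69 in knockouts (SD, n = 4 each), with every knockout library above every control, a log2 fold change of 0.38 and an edgeR adjusted p of 0.0671. *Ctla4* and *Ccr8*, the most abundant genes of the list, had log2 fold changes of 0.06 and −0.09. *Il17a* had 23 counts in knockout replicate 1 and 1 to 7 in the other libraries and was not tested.

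Of 9 AP-1 targets of T cell activation that were tested, out of 13, 0 were higher and 1 was lower at an unadjusted P of 0.05, with a median log2 fold change of 0.08. *Il2ra*, which encodes CD25, had 2268 normalized CPM in controls and 2076 in knockouts, with every knockout library below every control, a log2 fold change of −0.13 and an edgeR adjusted p of 0.152. *Cd44* had a log2 fold change of 0.08. Of 13 immediate early genes, which like *Fos* respond first to stimulation, 3 were higher and 0 were lower at an unadjusted P of 0.05, with a median of 0.08. They were *Egr1*, *Egr2* and *Klf6*, with log2 fold changes of 0.14, 0.21 and 0.18. *Klf6* did not pass with DESeq2, at an unadjusted P of 0.108, and its log2 fold change was −0.015 without knockout replicates 1 and 4. The most abundant genes, *Nr4a1* and *Myc*, had −0.02 and 0.08. Of the 90 tested genes of these 7 lists, 0 passed an adjusted p of 0.05 in edgeR's test, 3 did with DESeq2 and 2 with voom, and 13 (14.4%) passed an unadjusted P of 0.05, against 9.3% of all tested genes. Without knockout replicates 1 and 4, 5 of 90 (5.56%) passed, against 3.91% of all tested genes. *Irf7* and *Lag3* passed there, at log2 fold changes of −0.73 and 0.33, and *Maf*, *Atf3*, *Nfil3*, *Irf2bp2*, *Mapk8*, *Spred2*, *Il2ra*, *Egr1*, *Egr2* and *Klf6* did not.

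**Figure D5:**
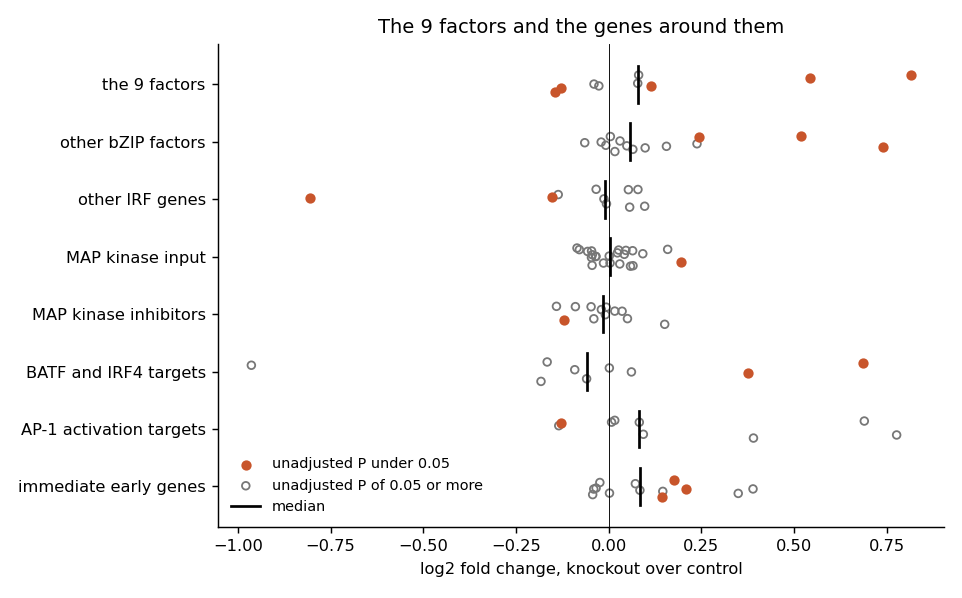
Log2 fold change, knockout over control (x axis), of the 9 factors and of the tested genes of 7 lists, 1 point per gene, filled where the unadjusted edgeR P is under 0.05, with a bar at each median. The medians lie between −0.06 and 0.08, and *Batf3* and *Fosl2* are the filled points farthest to the right among the 9 factors.

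*Batf3* and *Irf8* are also known from dendritic cells and *Irf4* and *Irf8* from B cells, so the markers of other cells were read beside them. Of 14 myeloid and dendritic cell markers, 4 were in the count table, where the smallest highest count of any gene was 10, and 3 were tested. The summed level of the 3 tested markers was 69.8 to 77.3 CPM in controls and 72.9 to 78.1 in knockouts. *Zbtb46* had a log2 fold change of −0.35 and *H2-Ab1* of 0.37, with unadjusted P values of 0.0417 and 0.0453 in edgeR's fit. *Lyz2*, a defining myeloid marker, had 9 and 18 counts in knockout replicates 1 and 4, the libraries with the most *Batf3*, and 0 in the other 6 after rounding, and was not tested. In knockout replicates 1 and 4, *Zbtb46* had 5.15 and 5.36 CPM, below every control, and *H2-Ab1* had 9.66 and 11.5, above every control. *Cd74* had 63.3 and 59.8 CPM there, against 54.3 to 63.2 in controls. Of 8 B cell markers, 2 were tested, with sums of 2.17 to 2.97 CPM in controls and 2.13 to 2.44 in knockouts. Of 7 markers of CD8+ T and NK cells, 5 were tested, with sums of 11.2 to 26.1 and 10.8 to 13.1 CPM, the highest in control replicate 3. Of these 5, 0 were higher and 2 were lower in knockouts at an unadjusted P of 0.05 in edgeR's fit, *Cd8a* with a log2 fold change of −2.15 and *Cd8b1* with −0.36. *Cd8a* had 11.3 CPM in control replicate 3 and at most 1.37 in the other controls. All 10 T cell markers were tested, with sums of 4414 to 4702 CPM in controls and 4185 to 4431 in knockouts, 0 higher and 4 lower at an unadjusted P of 0.05, *Foxp3* and *Il2ra* among them. The shares over all tested genes at this threshold were 4.38% higher and 4.91% lower. The part of other cells in the differences of *Batf3* and *Fosl2* was not tested.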

How the data were processed

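RNA-seq was performed on 8 iTreg cultures, 4 per genotype; the study's methods state 3 replicates from independent mice, and all 8 labelled libraries were used. Reads were mapped by the authors with STAR 2.7.8a to GRCm39, and the authors deposited estimated counts per gene from the E/M algorithm of Partek Flow, filtered and not normalized. The filter, strandedness and annotation version were not given in the sources used here. Of the deposited values, 43% were not whole, and all were rounded. The deposited totals were 13258239 to 16001676 counts per library, and limits set by 3 counts cover counting error only. No 2 libraries were duplicates, and 0 columns of other samples were present.

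The comparison used edgeR 4.0.16 in R 4.3.3 (filterByExpr with a minimum count of 10, TMM, glmQLFit and glmQLFTest with genotype as the only term, two-sided), with Benjamini-Hochberg adjustment over 11317 genes. Single genes were also compared by two-sided exact permutation tests over 70 arrangements of log2(CPM + 0.5). Alternatives changed the filter (none, or 10 counts or more in each library), the scaling (size factors of DESeq2, or totals alone), the tool (voom with quality weights in limma 3.58.1, or DESeq2 1.42.0), the model (replicate number as a block), the pseudocount (0.1 or 1) or the libraries (each left out). Leaving out knockout replicates 1 and 4 together was chosen after seeing the data. The scripts were tested on simulated data.

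Named genes were the 9 factors and, from each list, those with an unadjusted P under 0.05 (at most 6) and the 2 most abundant. The 3 most alike genes were named for factors with an unadjusted P under 0.05. Some genes that this rule names are not reported here. The factors and lists were chosen with earlier results of these data known. Exon lengths and overlaps came from GENCODE mouse release M39, which held 11910 of the 11911 gene identifiers. Gene coordinates were taken from the deposited table, and 1 was subtracted from its end column, which lies past the last base. Promoters came from RefSeq (GRCm38.p6), in which 9 of 9 factors matched, and the 50 bases after the start were left out. Figures were drawn with matplotlib 3.10.9 in Python 3.11.15, and permutation tests used scipy 1.17.1. P-values set the difference between genotypes against the spread between these libraries. Whether all 4 libraries per genotype came from independent mice was not given in the sources used here.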

Additional observations from a re-analysis of the deposited data

Results flagged for a closer look

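In 94 groups of 4 libraries, over 47 named genes, the gap between the highest or lowest library and its nearest neighbour was compared with the whole range of the group. A gap above Dixon's 95% critical value stood out in 5 groups, where chance marks about 1 group in 20. None of the 9 factors was among them. *Mapk8* in the knockouts had a gap of 0.924, since replicate 2 had 44.1 normalized CPM and the next library 48.6. *Dusp5* in the controls had a gap of 0.845, with replicate 4 at 314 CPM and the next at 299. *Egr1* in the controls had a gap of 0.830, with replicate 4 at 85.8 CPM and the next at 74.9. *Nr4a1* in the knockouts had a gap of 0.872, with replicate 3 at 467 CPM and the next at 449. *Cd8a* in the controls had a gap of 0.952, with replicate 3 at 11.3 CPM and the next at 1.37.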

How the results depend on the processing

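Counts were low for *Fos* and for the genes left untested. The count of factors at an unadjusted P of 0.05 was 5 and ranged from 2 to 7 with 1 library left out (3 without knockout replicate 1, 2 without knockout replicate 4), and was 1 without both. The count with an adjusted p under 0.05 was 0 and became 1 with DESeq2, 1 with voom and 2 with the replicate number as a block, and ranged from 0 to 2 with 1 library left out (2 without knockout replicate 2). Over all genes, 30 had an adjusted p under 0.05 in edgeR's test. This count was 79 with DESeq2, 95 with voom, 87 with the replicate number as a block, 6 to 162 with 1 library left out and 3 without knockout replicates 1 and 4. The count at an unadjusted P of 0.05 and 1.2-fold was 393, 302 to 530 with 1 library left out, and 235 without those libraries. The count of list genes at an unadjusted P of 0.05 was 13, 10 to 17 with 1 library left out, and 5 without them. The replicate numbers do not mark a pairing: deviations of same-numbered libraries correlated between −0.0458 and 0.0691, and 1 of 8 libraries correlated best with its own number. With the block, *Batf3* had an adjusted p of 0.0155 and *Fosl2* of 0.0287 in edgeR's test. Some log2 fold changes changed sign when libraries were left out, knockout replicates 1 and 4 together included. The ranges were −0.16 to 0.028 for *Batf* (above 0 without knockout replicate 2), −0.070 to 0.066 for *Fos* (above 0 without control replicate 4 or knockout replicate 1, and without knockout replicates 1 and 4), −0.048 to 0.014 for *Creb1*, −0.052 to 0.044 for *Irf2bpl*, −0.017 to 0.063 for *Map3k7*, −0.016 to 0.042 for *Dusp4*, −0.020 to 0.12 for *Cd44*, −0.015 to 0.24 for *Klf6* (below 0 without knockout replicates 1 and 4), −0.36 to 0.071 for *Cd79b*, −0.83 to 0.25 for *Ebf1* and −0.012 to 0.061 for *Cd74*. The cause was not tested. The log2 fold changes of the other 7 factors kept their direction in all 15 alternatives and without knockout replicates 1 and 4.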
